A study of Mus musculus with 4 samples.

Results

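The replication-dependent histone genes are the clustered genes that supply the bulk of histone protein during DNA synthesis, and they were followed here in bulk RNA-seq of embryonic mouse cortex. They were chosen by symbol, as every gene named Hist1h, Hist2h, Hist3h or Hist4h in the table of counts, which gave 56 of 27293 genes with a row. Of these, 54 are annotated as protein-coding and 2 as pseudogenes. The histone class in each symbol sorts them into 6 genes of H1, 11 of H2A, 17 of H2B, 10 of H3 and 12 of H4.

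The study asked what loss of STING, a sensor adaptor of cytosolic DNA encoded by Tmem173, does to the developing cortex. Tissue of the telencephalon was taken from C57BL/6 mice at E13, and total RNA was sequenced from 2 libraries labelled WT and 2 labelled STINGf/f; Nestin-Cre, called cKO here. Nestin-Cre drives recombination mainly in neural progenitors and their progeny. Most cells of blood, vessels and meninges in the tissue are thus expected to keep the floxed allele, which was not measured here. Whether the WT mice carried floxed alleles or Cre is not stated, and the title of WT 2 carries another abbreviation (nes) than that of WT 1. The labels do not say whether the libraries came from separate embryos or litters. Counts of Y-linked genes, given below, set WT 2 apart from WT 1, so the spread between these is not technical alone. The p-values below measure the spread between these 4 samples, which may in part be technical. The selection of RNA for the libraries, by poly(A) tail or by removal of ribosomal RNA, was not given in the sources used here.

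Histones package DNA. H2A, H2B, H3 and H4 form the core of the nucleosome, and H1 binds the linker DNA between cores. The messages of the replication-dependent genes are made in S phase and, unlike nearly all other messages, usually end in a short stem-loop bound by SLBP instead of a poly(A) tail. Some members can also be read past the stem-loop to a downstream poly(A) signal, and such tailed messages are known from cells that have left the cycle and are differentiating. Cortical tissue of this age holds cycling progenitors beside young neurons.

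The end of the message is shown first, since the genes differ in it. The transcript models of GENCODE M21 were searched for the 16 bases GGNNCTTTNNAGNNCC, in which the first pair of N bases had to be the reverse complement of the last pair, so that they can form the stem, and for AATAAA or ATTAAA within the last 60 bases. The stem-loop was found in the models of 38 of the 56 genes, and in 66 of 141767 transcripts in all (0.0466%). Each gene was searched in its longest model with a stem-loop, or else in its longest model. A poly(A) signal was found near the end of 14 of these models. Among all transcripts of all genes, taken without that choice, 34.4% had a signal. Of the 18 genes without a stem-loop, 7 have a model that holds coding sequence alone, so that no end of the message could be searched there. For 5 of the 6 most abundant histone genes the model held a poly(A) signal, and windows of 30 bases, 5′ to 3′ on the strand of the gene, are given for them with the stem-loop or the signal in capitals.

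Hist3h2ba, stem-loop: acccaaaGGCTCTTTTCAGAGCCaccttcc
Hist3h2ba, signal: atggtattAATAAAtttggttcaattttgg
Hist1h4i, stem-loop: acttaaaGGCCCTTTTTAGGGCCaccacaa
Hist1h4i, signal: tctgtttacATTAAAagtattctatgctaa
Hist3h2a, stem-loop: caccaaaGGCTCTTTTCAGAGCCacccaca
Hist3h2a, signal: atatgcccAATAAAataagagtacgtgtat
Hist1h1c, stem-loop: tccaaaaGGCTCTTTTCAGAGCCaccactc
Hist1h1c, signal: atgcttctAATAAAaagcgtttagttttca
Hist2h2be, signal: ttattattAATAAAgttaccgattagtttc

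The model ran on for 169 bases past the stem-loop in Hist3h2ba, 330 in Hist1h4i, 840 in Hist1h1c and 1643 in Hist3h2a. Hist2h2be had no match to the stem-loop letters, and Hist1h2bc, the sixth gene, matched neither search. The stem-loop letters followed the class. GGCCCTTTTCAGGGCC was found in 7 genes and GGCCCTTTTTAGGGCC in 2, all of them H4. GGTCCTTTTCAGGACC was found in 1 H4 gene, while no H1, H2A, H2B or H3 gene had any of these 3 forms. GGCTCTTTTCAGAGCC was found in 22 genes, 7 of H2A, 8 of H2B, 4 of H3 and 3 of H1, and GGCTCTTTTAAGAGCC in 6, of H3, H2B and H1.

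The libraries held between 17209654 and 18533391 counts, so that 3 counts, the limit that a count of 0 allows, came to between 0.162 and 0.174 CPM, the count scaled to the total of its library. These limits and the intervals of shares and ratios given below cover counting error only. The progenitor list (10 genes, Sox2, Pax6 and Nes among them) summed to between 2668.4 and 2941.6 CPM and the neuron list (9 genes) to between 5096.2 and 6304.4 CPM, so both cell types of the labelled tissue were present. WT 1 stood apart in other cells of the dissection. There, 7 choroid plexus genes summed to 51.5 CPM against 6.52 to 10.1 CPM in the other libraries. Folr1 was at 0 in WT 2. Of the choroid plexus genes, 3 of 3 tested were called lower in cKO at the thresholds of the study, against 0.669% of all genes tested. The 9 genes of meninges and mesenchyme summed to 297.3 CPM in WT 1 against 40.1 to 76.8 CPM, with 2 of 6 tested called lower and none at 0, and the 9 blood genes to 1093.0 CPM against 475.0 to 714.6 CPM. Endothelial genes (5, from 101.1 to 158.3 CPM) and microglial genes (5, from 16.8 to 29.5 CPM) were also highest in WT 1. The part of these cells in the histone values was not tested, and without WT 1 no histone gene was called either. Counts of 4 Y-linked genes were 0 in WT 2 and at least 1848 in the others. By this measure WT 2 held no male tissue, so it came from another embryo or pool than WT 1. Sex thus differed within WT and between the groups, and its part in the histone values was not tested. The count of Tmem173 was 20 and 19 in WT and 18 and 22 in cKO, and gene counts do not show whether the floxed exons were lost.

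The histone genes together took 3229 and 3705 counts in the WT libraries and 3441 and 4585 in the cKO libraries, or 187.6, 199.9, 188.7 and 253.4 CPM. These counts were spread very unevenly. Hist3h2ba alone held 50.6% of them, between 46.3% (95% Wilson interval 44.6 to 48.1%) in WT 1 and 55.1% (53.6 to 56.5%) in cKO 2. Together with Hist2h2be, Hist1h4i, Hist3h2a, Hist1h1c and Hist1h2bc it held 91.5%, between 90.9% and 92.0% per library. The other 50 genes summed to 17.1 and 16.1 CPM in WT and 15.6 and 21.6 CPM in cKO. Their median count in a library was between 3.5 and 6.0, and 14 of the 56 genes never passed 3 counts in any library.

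**Figure D1:**
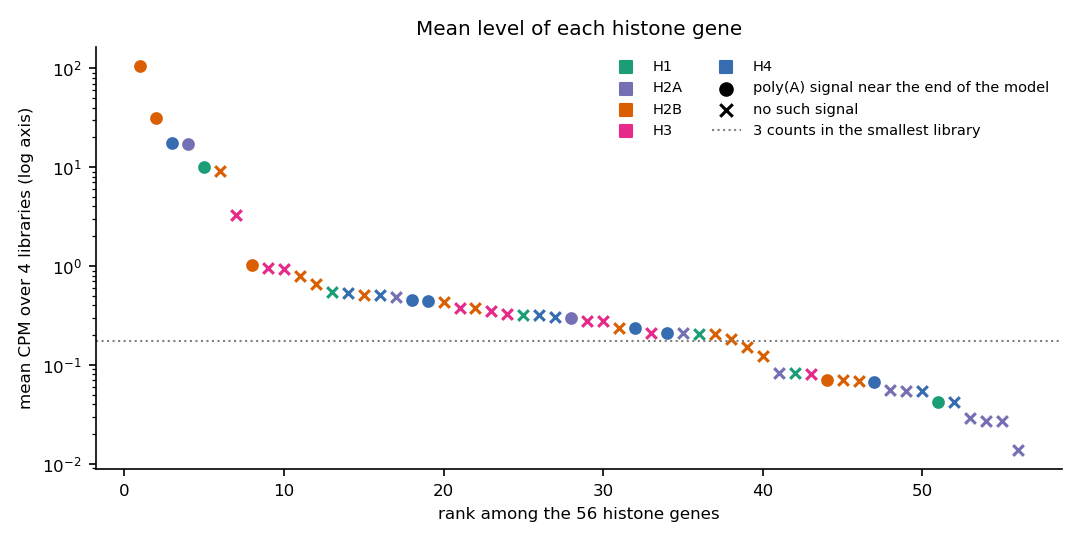
Mean CPM over 4 libraries (log axis) of each of the 56 histone genes, ranked, coloured by class, with circles for genes whose model has a poly(A) signal within its last 60 bases and crosses for the rest; the dotted line is 3 counts in the smallest library. The first 6 genes lie between 9.1 and 104.9 CPM, the seventh at 3.26 and the eighth at 1.02, and 5 of the first 6 but 9 of the other 50 are circles.

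Genes with a poly(A) signal held 88.5% of all histone counts, summing to 183.6 CPM against 23.9 CPM for the 42 genes without. This share rested on the leading genes. Among the other 50, the median level was 0.237 CPM in the 9 genes with a signal and 0.238 CPM in the 41 without. The 7 of these that had both a stem-loop and a signal ranged from 0.0425 to 1.02 CPM. A signal in the model went with a high level in 5 genes and not in the other 9. A list of RNAs that carry no poly(A) tail was also read. Of 16 such genes, 6 had a row, and they summed to 2.09, 1.35, 1.75 and 3.10 CPM in WT 1, WT 2, cKO 1 and cKO 2. These 6 are short, from 102 to 423 bases, and the part of length or of the missing tail in their levels was not tested. The highest were Rn7sk, which holds back the elongation factor P-TEFb, with 17, 14, 17 and 23 counts, and Terc, the RNA of telomerase, with 14, 7, 9 and 30 counts.

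The near-identity of histone genes limits these levels. Of the 50-base stretches of each gene's transcripts, the share found in no other GENCODE gene was between 68.5% and 100% in the leading 6 and had a median of 50.4% in the other 50, with the lowest at 2.68%. In all, 43 of the 56 genes had under 80% of such stretches. How the authors treated reads that map to several places is not given in the sources used here, so counts of the less unique genes are uncertain. The annotation holds 70 genes with these symbols, and the other 14 had no row in the table of counts and so could not be analysed. No gene with a row had 0 counts in every library. These 14 may therefore have had no counts at all, which the sources used here do not say. All 14 had under 80% of unique stretches, and 5, all in the Hist2 cluster, had none.

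Levels between classes were compared per kb of exon. On that scale H2B summed to 167.4, 196.0, 171.6 and 257.7 CPM per kb in WT 1, WT 2, cKO 1 and cKO 2. H4 followed with 27.3, 25.7, 26.3 and 36.7, then H3 with 10.4, 11.6, 9.62 and 14.1, H2A with 10.5, 9.41, 9.08 and 9.72, and H1 with 7.27, 7.40, 6.38 and 7.49 CPM per kb. H2B and H4 did not overlap with any other class in these libraries, whereas the ranges of H3 and H2A overlapped. Core histones enter the nucleosome in equal number, but their messages as counted here did not stand in that ratio. The sums cover only genes with a row, and most of the 14 annotated genes without a row are H2A genes. The level of H2A relative to the other classes is therefore uncertain. The excess of H2B was that of Hist3h2ba, which lay at 170.9 CPM per kb, above 98.8% of all genes tested. Each class had its own leading gene, with 69.9% of the counts of H2B in Hist3h2ba, 93.0% of H2A in Hist3h2a, 89.4% of H1 in Hist1h1c, 84.6% of H4 in Hist1h4i and 46.5% of H3 in Hist1h3c.

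**Figure D2:**
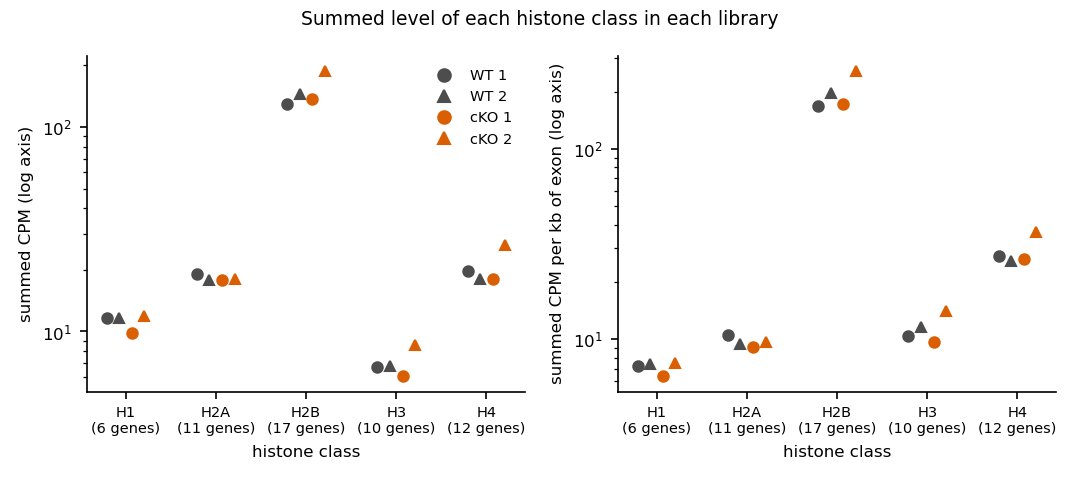
Summed level of each histone class per library, as CPM (left) and as CPM per kb of exon (right), both on log axes, with grey for WT, orange for cKO, circles for replicate 1 and triangles for replicate 2. H2B lies highest in every library, and cKO 2 is the highest library for H1, H2B, H3 and H4 but not for H2A.

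By position, the 3 genes of the Hist3 cluster (chromosome 11) held more than the 49 with a row of the Hist1 cluster (chromosome 13). The 14 annotated genes without a row all belong to Hist1 or Hist2, so the sums of these clusters hold no counts for them. Hist3 summed to 105.2 and 122.3 CPM in WT and 106.3 and 157.0 CPM in cKO. Hist1 summed to 50.7 and 48.0 CPM in WT and 46.1 and 62.5 CPM in cKO. On chromosome 3, the 3 Hist2 genes with a row summed to 31.3 and 29.5 CPM in WT and 36.1 and 33.8 CPM in cKO. Hist2h2be held 95.8% of this, and 5 of the Hist2 genes without a row have no unique 50-base stretch. Hist4h4, the lone gene of its cluster, on chromosome 6, had 6, 2, 3 and 4 counts.

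In the comparison of cKO with WT, 15 of the 56 genes passed the filter on low counts and entered the fit of all 16145 genes (edgeR, quasi-likelihood test). None of the 15 was called at the thresholds of the study, a fold change of at least 2 with p of at most 0.05, where 0.811% of all genes were called, 0.142% higher and 0.669% lower in cKO. None was called at an adjusted p under 0.05 or at an unadjusted p under 0.05 either, where 0% and 1.23% of all genes were called, and DESeq2 called none. The smallest unadjusted p was 0.219, for Hist3h2bb-ps. Log2 fold changes were above 0 for 9 genes, against 47.9% of all genes, and below 0 for 6, with a median of 0.16 against -0.009 over all genes. Both cKO libraries lay above both WT libraries in 2 genes (10.4% of all genes), and below in 3 (11.2%). The 41 genes that did not pass never had more than 12 counts in a library and summed to 8.37, 7.39, 8.01 and 10.1 CPM in WT 1, WT 2, cKO 1 and cKO 2. They hold 4.07% of the histone counts, and a difference in them was not detectable at this depth.

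**Figure D3:**
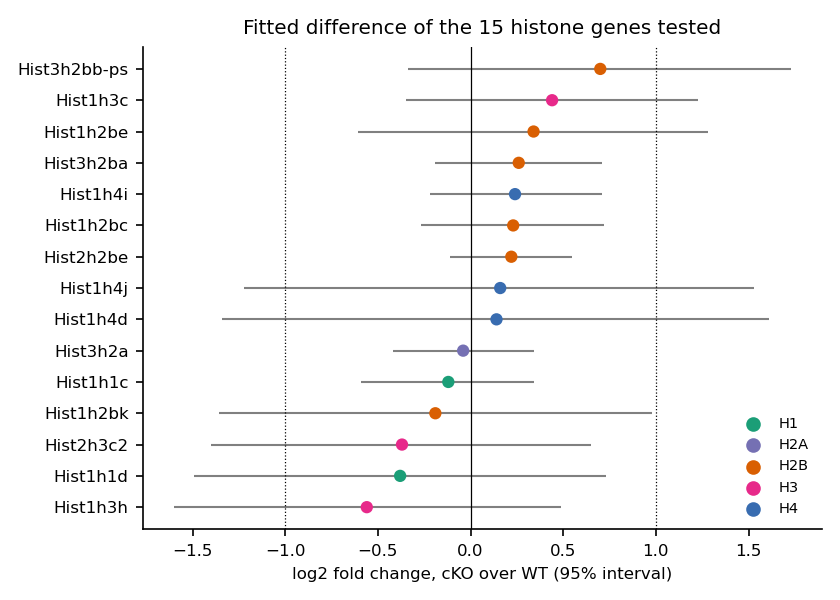
Log2 fold change of cKO over WT for the 15 histone genes tested (points, coloured by class) with 95% intervals (normal, from the standard error), against lines at no change (solid) and a 2-fold change (dotted). Every interval spans 0, from Hist1h3h at -0.56 to Hist3h2bb-ps at 0.70, and those of the 6 most abundant genes stay within a 2-fold change.

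H2B carried the most signal. Hist3h2ba (ENSMUSG00000056895, chr11:58948920-58949533 of GRCm38, plus strand, H2bu2 in RefSeq) encodes an H2B from the small Hist3 cluster. It had counts of 1496 and 1943 in WT and of 1612 and 2525 in cKO, or 86.9, 104.8, 88.4 and 139.6 CPM. cKO 2 was the highest and WT 1 the lowest, and cKO 1 lay between the WT libraries, so the groups overlapped. The log2 fold change was 0.26 (SE 0.232, 95% interval -0.19 to 0.71, edgeR adjusted p = 0.9999). Without cKO 2 it was -0.11, and without cKO 1 it was 0.56 with an unadjusted p of 0.0042 and an adjusted p of 0.121 in edgeR, so the sign of the difference was set by which cKO library was kept. The spread within a group was larger than between groups. cKO 2 lay 1.58-fold above cKO 1 (exact interval 1.48 to 1.68) and WT 2 lay 1.21-fold above WT 1 (1.13 to 1.29).

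Hist2h2be (ENSMUSG00000068854, chr3:96221119-96223738, plus strand) encodes an H2B of the Hist2 cluster. It was counted at 29.6 and 28.4 CPM in WT (mean 29.0 ± 0.886, SD, n = 2) and at 34.8 and 32.4 CPM in cKO (33.6 ± 1.68, n = 2). Both cKO libraries lay above both WT libraries. The log2 fold change of 0.22 (SE 0.169, interval -0.11 to 0.55) had an unadjusted p of 0.225 and an edgeR adjusted p of 0.9999. Hist1h2bc had 9.12 and 7.72 CPM in WT and 8.83 and 10.7 CPM in cKO, with the groups overlapping and a log2 fold change of 0.23 (SE 0.254). Hist1h2be had counts of 19 and 13 in WT and of 20 and 21 in cKO, and its annotated span, chr13:23583670-23621124, overlaps Hist1h1e and Gm11398 on the same strand. Its log2 fold change was 0.34 (SE 0.480). Hist3h2bb-ps, a pseudogene of the Hist3 cluster, had counts of 8 and 14 in WT and of 16 and 20 in cKO, without overlap, with a log2 fold change of 0.70 (SE 0.527). Hist1h2bk, named after its values were seen, had 10, 15, 7 and 15 counts and -0.19 (SE 0.598).

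H4 had Hist1h4i (ENSMUSG00000060639, chr13:22040636-22041362, minus strand, H4c9 in RefSeq) as its main message. Its counts of 284 and 289 in WT and 279 and 405 in cKO gave 16.5, 15.6, 15.3 and 22.4 CPM. WT 2 and cKO 1 lay within counting error of WT 1, at 0.945-fold (0.799 to 1.12) and 0.927-fold (0.783 to 1.10), and cKO 2 stood 1.46-fold above cKO 1 (1.25 to 1.71). The log2 fold change was 0.24 (SE 0.239), and -0.06 without cKO 2. Without cKO 1 it was 0.50, with an unadjusted p of 0.0255 and an edgeR adjusted p of 0.249. Hist1h4d had counts of 11 and 7 in WT and of 4 and 16 in cKO (log2 fold change 0.14, SE 0.751). Hist1h4k, which did not pass the filter, had 7, 10, 12 and 8. Hist1h4j, named after its values were seen, had 11, 4, 7 and 10 (0.16, SE 0.703).

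H2A was steady. Hist3h2a (ENSMUSG00000078851, chr11:58954685-58956830, plus strand, H2aw in RefSeq) had counts of 307 and 309 in WT and of 310 and 295 in cKO, or 17.8, 16.7, 17.0 and 16.3 CPM. The groups overlapped, and the log2 fold change was -0.04 (SE 0.193, interval -0.42 to 0.34), which leaves out a 2-fold change in either direction. The gene overlaps Trim17 on its own strand and Gm44313 on the other. How reads from the overlaps were counted is not given in the sources used here. The next genes of the class, Hist1h2ac with 6, 10, 7 and 12 counts and Hist1h2ae with 9, 0, 5 and 7, did not pass the filter.

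Of the linker histones, Hist1h1c (ENSMUSG00000036181, chr13:23738808-23740367, plus strand, H1f2 in RefSeq), a somatic H1, had counts of 180 and 197 in WT and of 160 and 189 in cKO. In CPM these were 10.5 and 10.6 in WT and 8.77 and 10.4 in cKO, so both cKO libraries lay below, cKO 2 by little. The log2 fold change was -0.12 (SE 0.238), and 0.01 without cKO 1. Hist1h1d had 11 counts in each WT library and 7 and 10 in cKO (-0.38, SE 0.566). Hist1h1e, not tested, had 4, 3, 4 and 12 counts, with cKO 2 the highest. Hist1h1t, the H1 of the male germ line, had 2, 1, 0 and 0 counts.

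H3 was low throughout. Hist1h3c, its highest gene, had counts of 39 and 61 in WT and of 51 and 85 in cKO, or 2.27, 3.29, 2.80 and 4.70 CPM. The groups overlapped, and replicate 2 lay above replicate 1 in each, 1.45-fold in WT (0.956 to 2.23) and 1.68-fold in cKO (1.17 to 2.43). The log2 fold change was 0.44 (SE 0.403), and went to 0.02 without cKO 2, 0.77 without cKO 1, 0.19 without WT 1 and 0.76 without WT 2. Hist1h3h had counts of 19 and 22 in WT and of 9 and 19 in cKO, with both cKO libraries below in CPM and the largest fitted decrease, -0.56 (SE 0.534). It was -0.10 without cKO 1 and -1.19 without cKO 2. No more than 6.08% of its 50-base stretches are unique to it. Hist2h3c2 had counts of 23 and 14 in WT and of 17 and 12 in cKO (-0.37, SE 0.522), and 0.07 without WT 1.

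**Figure D4:**
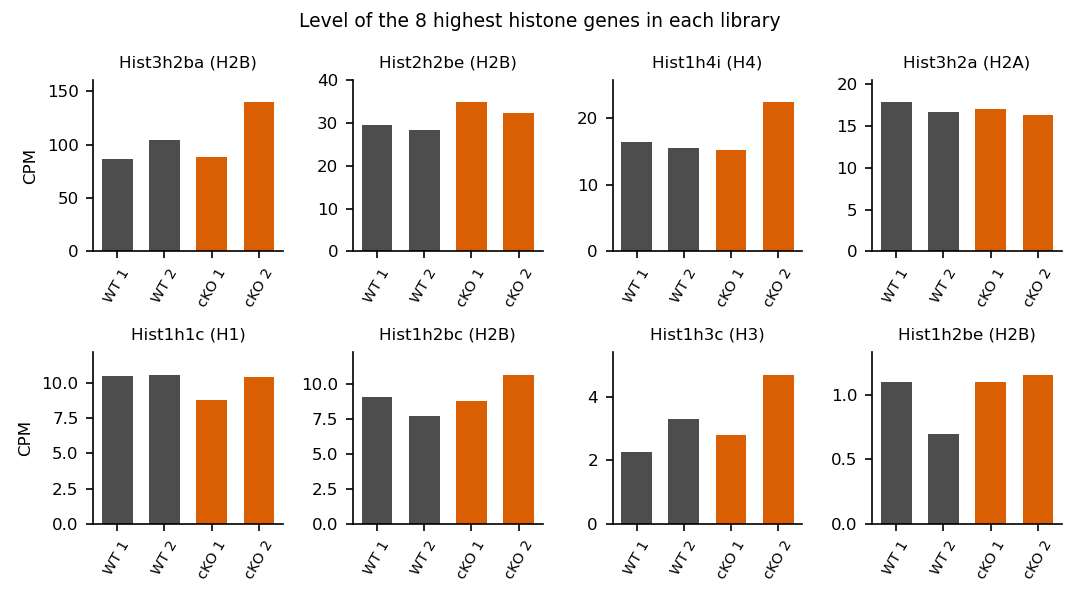
CPM of the 8 most abundant histone genes in WT 1, WT 2 (grey) and cKO 1, cKO 2 (orange), with an axis from 0 for each gene and 1 bar per library, without error bars. cKO 2 is the highest bar for Hist3h2ba, Hist1h4i, Hist1h2bc, Hist1h3c and Hist1h2be, at 139.6, 22.4, 10.7, 4.70 and 1.16 CPM, while Hist3h2a is nearly level across the 4 bars.

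The histone genes also differed between cKO 2 and cKO 1, libraries of the same label. cKO 2 was the highest library for 8 of the 15 genes tested, against 31.5% of all genes, and cKO 1 the lowest for 6, against 26.9%. Their summed CPM was 1.34-fold higher in cKO 2 (1.28 to 1.40), while WT 2 was 1.07-fold above WT 1 (1.02 to 1.12). The difference was not that of Hist3h2ba alone, since the other 55 genes summed to 1.14-fold (1.07 to 1.21) and the 50 least abundant to 1.38-fold (1.19 to 1.62). Base composition and length moved with it over all genes. The median ratio of cKO 2 over cKO 1 was 0.725 in 4164 tested genes with under 45% of G and C in their transcript, 1.01 in 8370 genes of 45 to 55%, and 1.21 in 3564 genes of 55% or more. By exon length it was 1.13 under 1 kb, 1.16 from 1 to 2 kb, 1.06 from 2 to 5 kb and 0.892 from 5 kb. Between WT 2 and WT 1 the same medians stayed between 0.917 and 1.01. Hist3h2ba has 57.2% of G and C, Hist1h4i 52.8% and Hist1h3c 56.0%, with ratios of 1.58, 1.46 and 1.68. Hist2h2be at 45.3% and Hist3h2a at 45.9% had ratios of 0.932 (0.832 to 1.04) and 0.959 (0.815 to 1.13). Hist1h1c at 55.1% and Hist1h2bc at 45.9% lay between, at 1.19 (0.96 to 1.48) and 1.21 (0.981 to 1.51). The part of base composition and length in the histone difference was not tested.

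Many H2A and H2B genes lie back to back and are read outward from a shared start region. Within 1000 bases the annotation places 15 outward-facing pairs of histone genes, 14 of them an H2A with an H2B gene. In 10 pairs both genes had a row. For 9 of these, of H2A with H2B, the starts lay 172 to 295 bases apart, and those of Hist1h2bh and Hist1h3f, an H3 gene, 659 bases apart. In 5 of the 10 pairs a partner never passed 3 counts in any library, and no fold is given for them. In the other 5 the higher gene lay between 1.32-fold and 40.4-fold above its partner per kb of exon, and in each of these at least 1 partner had no more than 20 counts in any library. The widest gap was between Hist1h2bc, with 157, 143, 161 and 194 counts, and Hist1h2ac, with 6, 10, 7 and 12, whose starts lie 250 bases apart. In the Hist3 cluster Hist3h2a exceeded Hist3h2bb-ps 4.59-fold per kb across 172 bases.

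**Figure D5:**
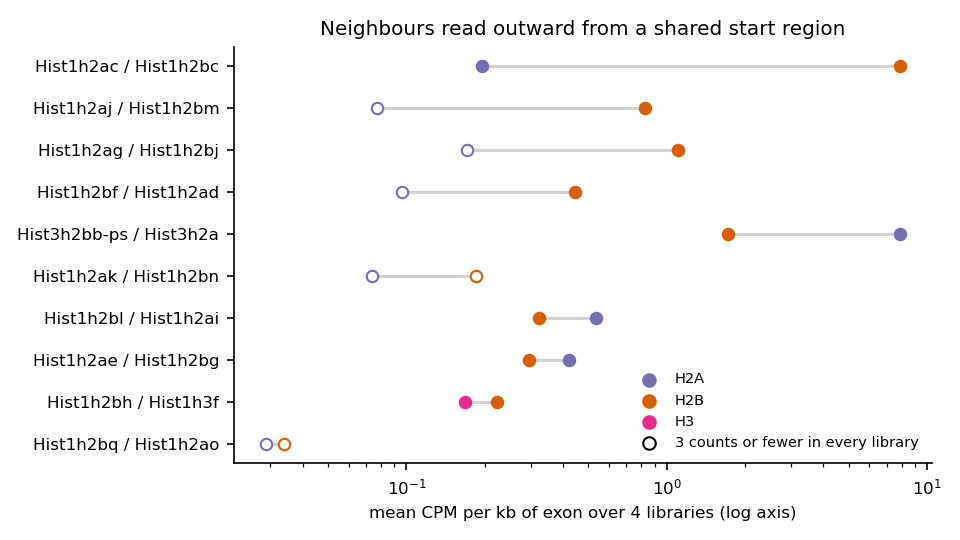
Mean CPM per kb of exon over 4 libraries (log axis) for the partners of 10 outward-facing histone gene pairs, coloured by class and joined by a line, with open circles for genes that never passed 3 counts in any library. The pair Hist1h2ac and Hist1h2bc is the farthest apart, at 0.195 and 7.87 CPM per kb.

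The start regions of these 2 pairs, and that of Hist3h2ba, the most abundant histone gene, are given from RefSeq (GRCm38.p6) as the 250 bases before the start, 5′ to 3′ on the strand of the named gene, with CCAAT, with TATAAA and with the octamer letters, ATTTGCAT, in capitals on either strand. CCAAT is the site of the factor NF-Y, TATAAA a form of the TATA box, and the octamer the site of OCT1, which is encoded by Pou2f1 and acts on H2B genes. That before Hist1h2ac, chr13:23683960-23684209 on the minus strand, spans nearly all of the stretch it shares with Hist1h2bc. The other regions are chr11:58954435-58954684 (plus) before Hist3h2a, which holds the start of Hist3h2bb-ps, and chr11:58948661-58948910 (plus) before Hist3h2ba.

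Hist1h2ac: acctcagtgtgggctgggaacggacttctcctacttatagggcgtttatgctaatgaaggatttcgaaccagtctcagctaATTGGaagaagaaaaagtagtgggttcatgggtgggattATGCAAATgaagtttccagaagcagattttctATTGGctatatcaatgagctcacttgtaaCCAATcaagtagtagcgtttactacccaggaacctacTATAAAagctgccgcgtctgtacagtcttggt
Hist3h2a: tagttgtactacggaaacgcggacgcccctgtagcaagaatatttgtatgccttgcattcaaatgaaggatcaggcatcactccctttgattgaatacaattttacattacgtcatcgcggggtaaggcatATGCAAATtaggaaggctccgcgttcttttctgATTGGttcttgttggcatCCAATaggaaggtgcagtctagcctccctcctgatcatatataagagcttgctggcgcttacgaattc
Hist3h2ba: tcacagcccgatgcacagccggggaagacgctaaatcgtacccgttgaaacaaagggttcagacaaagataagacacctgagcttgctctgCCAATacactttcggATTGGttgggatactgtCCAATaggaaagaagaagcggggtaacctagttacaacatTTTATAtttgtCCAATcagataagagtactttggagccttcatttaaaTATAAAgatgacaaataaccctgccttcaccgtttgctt

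Both shared regions hold an octamer match and CCAAT matches, and the region before Hist3h2ba holds CCAAT and TATAAA but no octamer match. A start region was found for 48 of the 56 genes, matched by symbol within 100 bases of the annotated start. CCAAT was present in all 5 of H1, 10 of H2A and 14 of H2B and in 7 of 8 of H3, but in 3 of 11 of H4, against 33.8% of all 32851 start regions. TATAAA was present in 23 of 48, against 12.4%. The octamer was found in 4 of 10 of H2A and 4 of 14 of H2B and in no H1, H3 or H4 gene, against 1.6% of all. A match is a run of letters, and no binding was measured.

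The machinery around these genes was described from fixed lists, and 0.811% of all genes tested were called at the thresholds of the study. Of 18 genes that make and process histone messages, all were tested and none was called. Of these, 10 lay above 0, against 47.9% of all genes, and 8 below, with a median log2 fold change of 0.02. The highest were Sympk, the scaffold of the cleavage complex (log2 fold change 0.09, SE 0.160), and Upf1, which acts in histone message decay (0.12, SE 0.144). Slbp, which binds the stem-loop, had 67.2 and 53.6 CPM in WT and 63.6 and 45.3 CPM in cKO, without the groups separating. Of 20 histone chaperones none was called, 14 were above 0, against 47.9% of all genes, and the median was 0.05. The highest, Set and Npm1, had 0.09 (SE 0.151) and -0.11 (SE 0.206).

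The variant histones are encoded outside the clusters, and many are made from polyadenylated messages beyond S phase. They were counted at far higher levels in these libraries than the clustered genes. The 11 variants summed to 3778.2 and 3560.9 CPM in WT and 3552.3 and 3861.2 CPM in cKO, and per kb to 1543.6 CPM against 255.4 CPM for the 56 clustered genes. The selection of RNA and the handling of shared reads were not given, so these counts do not show the ratio of the messages in the tissue. H3f3b, for H3.3, led with 1197.1, 1017.4, 1079.0 and 882.0 CPM, followed by H1f0, for the linker histone of resting cells, with 731.1, 691.8, 655.7 and 725.3 CPM. None of the 11 was called, against 0.811% of all genes, and 9 lay above 0 (median 0.14), against 47.9% of all genes. S phase genes were plentiful too, with Mcm7, a subunit of the replicative helicase, at 308.0, 306.3, 311.1 and 343.9 CPM, and Pcna, the sliding clamp, at 286.2, 264.3, 297.1 and 268.6 CPM. Of these 21 genes none was called, against 0.811% of all genes, and 19 lay above 0, against 47.9% of all genes. Their median log2 fold change was 0.13. In 9 of them both cKO libraries lay above both WT libraries (10.4% of all genes). In bulk tissue, a change in the number of cells of a type and a change in RNA per cell cannot be told apart.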

How the data were processed

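Bulk RNA-seq of 4 libraries of E13 mouse cortical tissue, 2 WT and 2 cKO, was analysed, with groups taken from the sample labels. The authors deposited raw counts of reads per gene, which were used as given. Of 27304 rows, 11 (0.0403%) name no gene and were left out. The submitters' processing notes name Bowtie2 2.2.3, TopHat2 2.0.12, HTSeq 0.6.0 and mm9. The deposited positions of all 56 histone genes equal those of GENCODE M21, as do those of 97.3% of 27232 genes within 1 base, and were read as GRCm38. Strand and the handling of multiply mapped reads are not given in the sources used here. Deposited fold changes and p-values, and a table of cKO 1 and WT 1 alone, were not used.

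The test of each gene used edgeR 4.0.16 under R 4.3.3 (filterByExpr, TMM, quasi-likelihood test, two-sided, no covariate), with Benjamini-Hochberg adjustment over 16145 genes. DEGs were called at the thresholds of the study, a fold change of at least 2 and p of at most 0.05. With 2 libraries per group an exact permutation test cannot go below 0.333, and none was used. The script was tested on simulated data. CPM were counts over the total of the library, and class and cluster sums were given without a test. Shares have Wilson intervals and ratios exact binomial intervals (scipy 1.17.1). Alternatives were RLE and upper quartile normalization, other filters, DESeq2 1.42.0, the replicate number as a block, and leaving out each library. Unique stretches were counted against all GENCODE M21 transcripts. Sequences came from GENCODE M21 and RefSeq.

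The genes and lists were chosen with earlier results of these data known. Named are the 3 highest genes of each class, any called, any at least 3 times as high in 1 library as in the rest with 20 counts or more (none met this), the 3 largest fitted changes in each direction, Hist4h4, and of each further list the 2 highest genes and those called; Slbp, Pou2f1, Tmem173, Trim17 and the marker genes were added.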

Additional observations from a re-analysis of the deposited data

How the results depend on the processing

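No histone gene was called at the thresholds of the study, or at an adjusted p under 0.05, in the 10 alternative fits, nor with p of at most 0.01. The count over all genes moved more. From 131 genes it went to 14 with p of at most 0.01, 405 without the filter, 72 over genes that reached 10 counts in all 4 libraries, 208 with the replicate block and 82 with DESeq2, and leaving out 1 library gave 104 to 531. At an adjusted p under 0.05 the 0 genes became 65 without the filter, 5 with the replicate block, and 0 to 116 when a library was left out, where the lone library of a group is assumed to vary like the other group. The replicate numbers are shared by 2 pairs and nothing says that they pair the samples (correlation of deviations 0.108 over 16145 genes). The block changed no histone call.

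Signs changed in 5 of the 13 named genes that were tested, Hist3h2ba and Hist1h4i among them. Without cKO 2 the log2 fold change became -0.11 for Hist3h2ba, -0.06 for Hist1h4i and -1.17 for Hist1h4d. It became 0.01 for Hist1h1c without cKO 1, 0.07 for Hist2h3c2 without WT 1 and -0.17 for Hist1h4d without WT 2. The highest values over these fits were 0.56 for Hist3h2ba, 0.50 for Hist1h4i and 0.82 for Hist1h4d, all without cKO 1, and the lowest for Hist2h3c2 was -0.71, without WT 2. Leaving out a library moved the log2 ratio of summed CPM, cKO over WT, from 0.19 to between -0.04 and 0.39 for all histone genes. It ran from -0.25 to 0.03 for H1 (-0.10 with all libraries), from -0.10 to 0.01 for H2A (-0.05), from -0.01 to 0.45 for H2B (0.24), from -0.17 to 0.35 for H3 (0.11) and from -0.06 to 0.49 for H4 (0.24). By cluster it ran from -0.10 to 0.34 for Hist1 (0.14) and from -0.10 to 0.46 for Hist3 (0.21). The lowest of these came without cKO 2, except for H2A. Without its highest gene the ratio was 0.18 for H1, 0.04 for H2A, -0.16 for H3, -0.02 for the Hist3 cluster and -0.09 for the Hist2 cluster, which had 0.20 with it. Over genes with at least 80% unique stretches, an alternative chosen after seeing the data, it was -0.05 for the Hist1 cluster and 0.24 for H2A, where Hist1h2ac, at 6 to 12 counts, is the lone gene left. The causes were not tested. With 2 libraries per group, 41 genes of no more than 12 counts and unknown handling of shared reads, small differences in most histone genes were out of reach.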
